A study of Mus musculus with 8 samples.

Results

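Neutrophils store their weapons in granules that are filled in a fixed order while the cell matures in the bone marrow, and many of the genes for granule proteins are shut off before the cell enters the blood. Mature neutrophils keep high levels of the mRNA for the calcium-binding proteins S100A8 and S100A9, and they carry surface receptors such as the receptor for granulocyte colony-stimulating factor. In atherosclerosis they enter the vessel wall in small numbers beside the far more abundant macrophages, and their granule proteins are known to attract monocytes and to damage the intima.

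Here 10 genes of this kind were followed in the whole mouse aorta. They were S100a8 and S100a9 (cytosolic calcium-binding proteins), Retnlg (a secreted resistin-like protein), Ly6g and Csf3r (surface proteins), Mpo and Elane (enzymes of the primary granules), and Camp, Ngp and Ltf (proteins of the specific granules). Each was matched by its symbol to the gene table, which held 48607 assembled loci, and each of the 10 had exactly 1 locus, which carried no other gene name. Of the 10, 4 passed the filter on low values (at least 1 FPKM in at least 3 libraries, where FPKM is a fragment count corrected for transcript length and sequencing depth). These were S100a8, S100a9, Retnlg and Csf3r, and the other 6 were below it.

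The libraries were made from poly(A) RNA of entire aortas of ApoE-/- mice, which develop atherosclerosis because they lack apolipoprotein E, and of NPRC-/-ApoE-/- mice, which in addition lack natriuretic peptide receptor C (gene Npr3) in the whole body through a CRISPR frameshift. The ApoE deletion and a Western diet of 12 weeks were shared by both genotypes, while the age of the sequenced mice themselves was not stated (the purchased ApoE-/- males were 8 weeks old). By title, 5 libraries were ApoE-/- (1 to 5) and 3 were NPRC-/-ApoE-/- (1 to 3). The genotype entered separately for each library named the same genotype for 4 of the 8 (ApoE-/- 1, 2 and 3 and NPRC-/-ApoE-/- 3), and the opposite genotype for the remaining 4 (titled ApoE-/- 4 and 5 and NPRC-/-ApoE-/- 1 and 2). Each comparison was therefore made by title and again by genotype entry, and libraries are named here by title. The level of Npr3 did not separate the titled groups, since it ranged from 0.62 to 1.69 FPKM under the ApoE-/- title and from 1.13 to 1.39 FPKM under the NPRC-/-ApoE-/- title, and a frameshift need not lower the RNA.

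The total count was between 62969165 and 86693276 per library, so that a count of 0 allows up to 0.0346 to 0.0476 CPM (counts scaled to the library total; 3 counts of that total, covering counting error only). The libraries also separated by the share of counts in 57 ribosomal protein loci. It was 0.387 to 0.487% in ApoE-/- 2, 3 and 4 and NPRC-/-ApoE-/- 1, and 0.238 to 0.289% in ApoE-/- 1 and 5 and NPRC-/-ApoE-/- 2 and 3. The labels name no batch, and both sets hold libraries of both genotypes under either label. Markers of the aortic wall were present in every library. The summed FPKM of 6 smooth muscle genes (led by Acta2, Tagln and Myh11) was 1295 to 2880, that of 4 endothelial genes (led by Vwf, Pecam1 and Cdh5) 65.7 to 76.1, and that of 4 fibroblast genes (led by Col1a1, Lum and Dcn) 248 to 1267. The summed FPKM of 4 fat genes, led by Ucp1, Cidea and Adipoq, was 112 to 558.

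In GRCm38 with the GENCODE M21 annotation, S100a8 (chromosome 3, 90668978 to 90670035, plus strand) and S100a9 (chromosome 3, 90692632 to 90695721, minus strand) are neighbours 22.6 kb apart. Camp, Ngp and Ltf lie on chromosome 9, with 570.1 kb between Camp and Ngp and 596.3 kb between Ngp and Ltf. The rest lie on chromosomes of their own, namely Retnlg on 16, Ly6g on 15, Mpo on 11, Elane on 10 and Csf3r on 4. Mpo overlaps another annotated gene, Gm11505, and the sources used here do not say whether the counting used strand, so their reads may not be separable.

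The upstream sequences of S100a8, S100a9 and Retnlg are shown because these 3 genes had almost the same pattern over the libraries. They were read from RefSeq promoter windows of GRCm38.p6 (250 bases before to 50 after the start site) and end just before the first annotated base of the gene. Capitals mark matches on either strand to TTNNGNAA, the core of a C/EBP site, and to GAGGAA, the core bound by PU.1 and other ETS factors, and the matches did not overlap.
S100a8 (chr3:90668821-90668977, plus strand): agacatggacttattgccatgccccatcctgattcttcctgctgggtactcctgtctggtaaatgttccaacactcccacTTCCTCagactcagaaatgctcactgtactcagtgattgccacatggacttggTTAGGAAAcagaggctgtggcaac
S100a9 (chr3:90695722-90695971, minus strand): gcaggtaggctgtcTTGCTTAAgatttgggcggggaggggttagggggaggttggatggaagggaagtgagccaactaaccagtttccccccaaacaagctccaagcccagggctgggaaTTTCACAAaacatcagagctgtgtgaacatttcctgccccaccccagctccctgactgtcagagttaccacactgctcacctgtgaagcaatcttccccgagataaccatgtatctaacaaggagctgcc
Retnlg (chr16:48872358-48872607, plus strand): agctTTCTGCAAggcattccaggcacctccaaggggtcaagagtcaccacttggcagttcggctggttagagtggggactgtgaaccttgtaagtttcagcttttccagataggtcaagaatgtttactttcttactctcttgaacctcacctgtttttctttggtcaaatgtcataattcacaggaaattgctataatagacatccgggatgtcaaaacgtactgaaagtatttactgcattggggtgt
The stretch of S100a8 holds 1 match to each motif, that of S100a9 holds 2 matches to the C/EBP motif, and that of Retnlg holds 1. Over the whole 300-base windows of all 10 genes, which were all matched by symbol, the C/EBP motif was found for 6 genes (S100a8, S100a9, Retnlg, Ly6g, Ngp and Ltf) and GAGGAA for 6 (S100a8, Ly6g, Mpo, Elane, Ltf and Csf3r). Of all 32851 windows, 40.7% held the first and 28.3% the second, so both motifs are common. Another motif searched, TATAAA, was found for S100a8, S100a9 and Ly6g and in 13.6% of all windows. These are matches of letters and not measured binding.

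All 10 genes were low in the aorta. Per length, Csf3r had the highest mean (2.99 ± 1.38 FPKM, SD, n = 8), followed by S100a8 (2.68 ± 2.09), S100a9 (0.955 ± 0.611), Retnlg (0.689 ± 0.487), Ngp (0.483 ± 0.371), Camp (0.224 ± 0.214), Ltf (0.168 ± 0.118), Elane (0.116 ± 0.119), Mpo (0.050 ± 0.122) and Ly6g (0.0300 ± 0.0414). Csf3r and S100a8 could not be ordered, as each was the higher one in 4 of 8 libraries. S100a8 was above S100a9 in 8 of 8 libraries, S100a9 above Retnlg in 7 and Ngp above Camp in 7. Below that, Camp was above Ltf in 5 libraries and Elane above Mpo in 5, so these neighbours were not separated beyond the spread between libraries. For scale, Lyz2, a lysozyme shared by macrophages and neutrophils, reached 220 to 1544 FPKM in the same libraries.

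**Figure D1:**
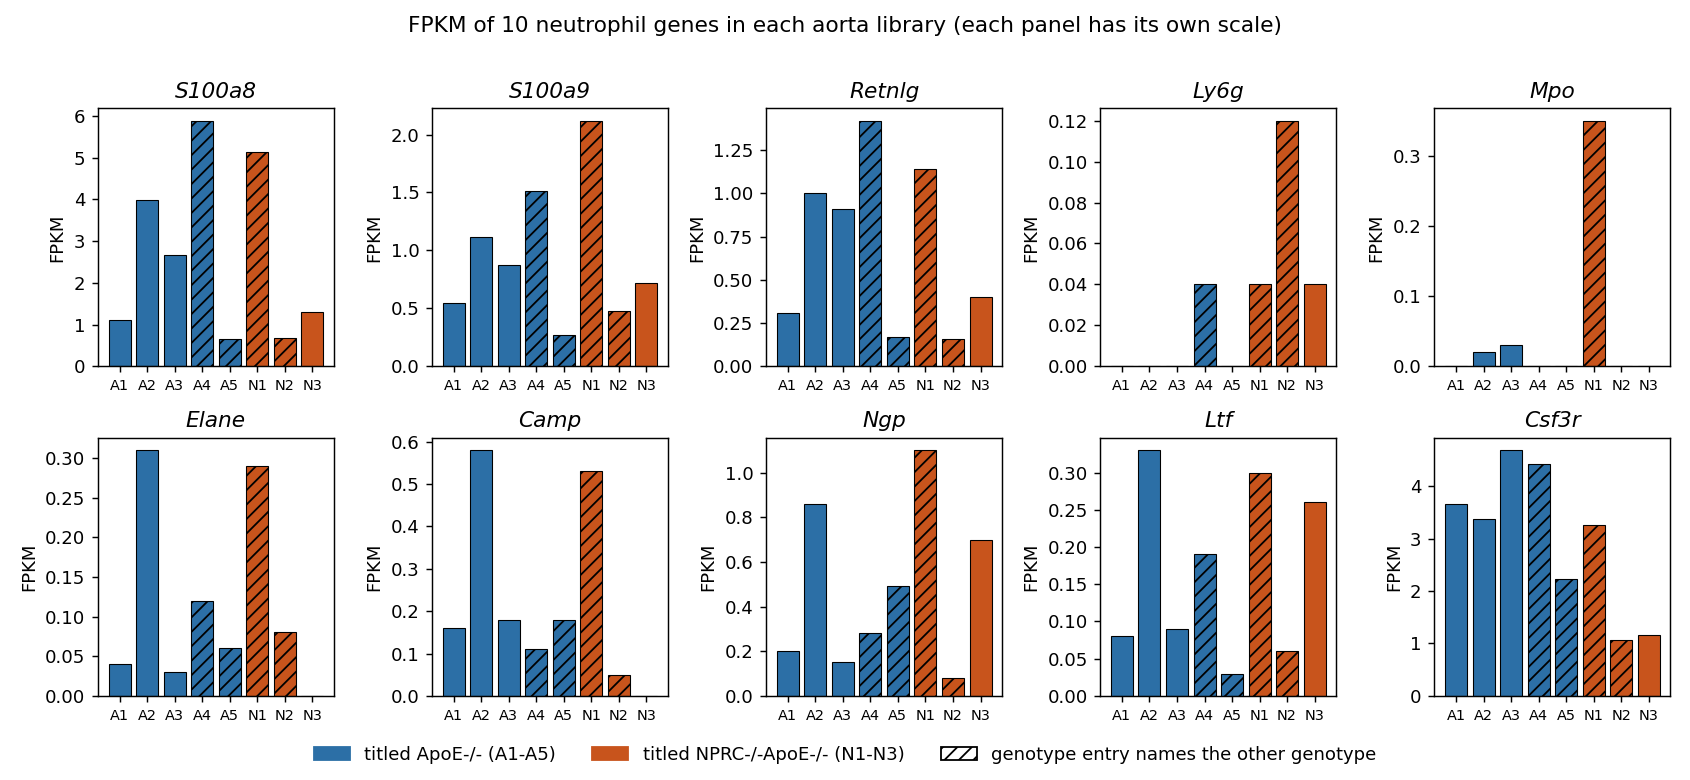
FPKM (y axis, a scale of its own in each panel) of the 10 genes in each library (x axis; A1 to A5 are titled ApoE-/- and N1 to N3 NPRC-/-ApoE-/-; hatched bars are the 4 libraries whose genotype entry names the other genotype). S100a8, S100a9 and Retnlg are high in A2, A3, A4 and N1, Mpo has 127 of its 143 counts in N1, and Csf3r is lowest in N2 and N3.

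The calcium-binding pair and Retnlg varied together from library to library and did not separate the genotypes under either label. S100A8 and S100A9 form calprotectin, the most abundant cytosolic protein of neutrophils, and Retnlg encodes a hormone-like protein secreted by granulocytes. In the libraries titled ApoE-/- 1 to 5, S100a8 was 1.10, 3.98, 2.66, 5.89 and 0.66 FPKM, and in NPRC-/-ApoE-/- 1 to 3 it was 5.14, 0.69 and 1.31 FPKM. S100a9 was 0.55, 1.12, 0.87, 1.51 and 0.27 FPKM in ApoE-/- 1 to 5 and 2.12, 0.48 and 0.72 FPKM in NPRC-/-ApoE-/- 1 to 3. Retnlg was 0.31, 1.00, 0.91, 1.42 and 0.17 FPKM and 1.14, 0.16 and 0.40 FPKM in the same order. For each of the 3 genes the ranges of the titled groups overlapped widely, with ApoE-/- 4 or NPRC-/-ApoE-/- 1 the highest library and ApoE-/- 5 or NPRC-/-ApoE-/- 2 the lowest.

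By title, the log2 fold change in NPRC-/-ApoE-/- over ApoE-/- was -0.28 ± 0.81 for S100a8 (SE; adjusted p = 0.901 by the quasi-likelihood test of edgeR, adjusted after Benjamini and Hochberg). It was 0.33 ± 0.62 for S100a9 (adjusted p = 0.833, edgeR) and -0.43 ± 0.76 for Retnlg (adjusted p = 0.824, edgeR). By genotype entry the same fit gave 0.02 ± 0.81, -0.24 ± 0.64 and -0.03 ± 0.77. With standard errors of 0.62 to 0.81, a 2-fold difference in these genes was not detectable at this spread between libraries.

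Across the 8 libraries, the log2 CPM of S100a8 correlated with those of Retnlg (Pearson r = 0.989, exact permutation p = 7.44e-05, adjusted over 8 relations 0.000595; Spearman rho = 0.976, exact permutation p = 0.000397, adjusted 0.00159) and of S100a9 (r = 0.949, exact permutation p = 0.000273, adjusted 0.00109; rho = 0.976, exact permutation p = 0.000397, adjusted 0.00159). Without ApoE-/- 4 and 5, the libraries farthest from the median of S100a8, r was 0.980 and 0.943. The FPKM ratio of S100a8 to Retnlg stayed between 2.92 and 4.51 over the libraries. The other 6 relations did not pass the threshold after adjustment. Their r was 0.423 with Ngp (rho = 0.429), 0.477 with Camp (rho = 0.333), 0.683 with Csf3r (rho = 0.548), 0.673 with the locus of Cd68, a macrophage lysosomal gene (rho = 0.619), 0.620 with the pan-leukocyte gene Ptprc (rho = 0.571) and 0.166 with the locus of the beta-globin genes Hbb-bs and Hbb-bt (rho = -0.0714). Their exact permutation p-values for r were 0.287, 0.238, 0.0728, 0.0771, 0.114 and 0.690 in this order, or 0.328, 0.317, 0.154, 0.154, 0.183 and 0.690 adjusted, and those for rho were 0.299, 0.428, 0.171, 0.115, 0.151 and 0.882, or 0.399, 0.489, 0.274, 0.274, 0.274 and 0.882 adjusted. Without the same libraries their r was 0.708, 0.724, 0.646, 0.440, 0.680 and 0.403. The locus of Cd68 also holds Senp3, Eif4a1 and other genes.

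These 3 genes separated the libraries in the same way as the share of ribosomal protein counts. S100a8 was 2.66 to 5.89 FPKM in the 4 libraries with the higher share and 0.66 to 1.31 FPKM in the other 4. S100a9 was 0.87 to 2.12 against 0.27 to 0.72 FPKM, and Retnlg 0.91 to 1.42 against 0.16 to 0.40 FPKM. Thus 3 of the 4 tested genes were higher in every library of the first set than in any of the second, as were 9.48% of all loci tested, and Csf3r overlapped (3.26 to 4.69 against 1.07 to 3.67 FPKM). However, S100a9 and Retnlg reached 1 FPKM only in ApoE-/- 2 and 4 and NPRC-/-ApoE-/- 1, all of the higher set. They passed the filter only through that set, so this count cannot be weighed against the share of all loci. After the log2 CPM were centred within each set, which was chosen after seeing the data, r with Retnlg was 0.913 (exact permutation within the sets, p = 0.00521, adjusted over 8 relations 0.0417; rho = 0.900, exact permutation p = 0.0243, adjusted 0.0972) and r with S100a9 was 0.863 (exact permutation p = 0.0174, adjusted 0.0694; rho = 0.900, exact permutation p = 0.0243, adjusted 0.0972). Thus the relation with Retnlg passed the threshold by r and not by rho, and that with S100a9 by neither. The other 6 did not pass, and r turned to -0.043 with Csf3r, -0.20 with Ptprc and -0.48 with Camp (exact permutation p = 0.924, 0.606 and 0.266). Within the sets taken singly, as values over 4 libraries each, r was 0.829 and 0.891 with S100a9 and 0.863 and 0.994 with Retnlg, but -0.208 and 0.0203 with Csf3r and -0.508 and -0.117 with Ptprc. With Ngp, Camp, Hbb-bs and Cd68 it was 0.370 and 0.465, -0.160 and -0.703, 0.116 and 0.325, and -0.120 and 0.541.

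**Figure D2:**
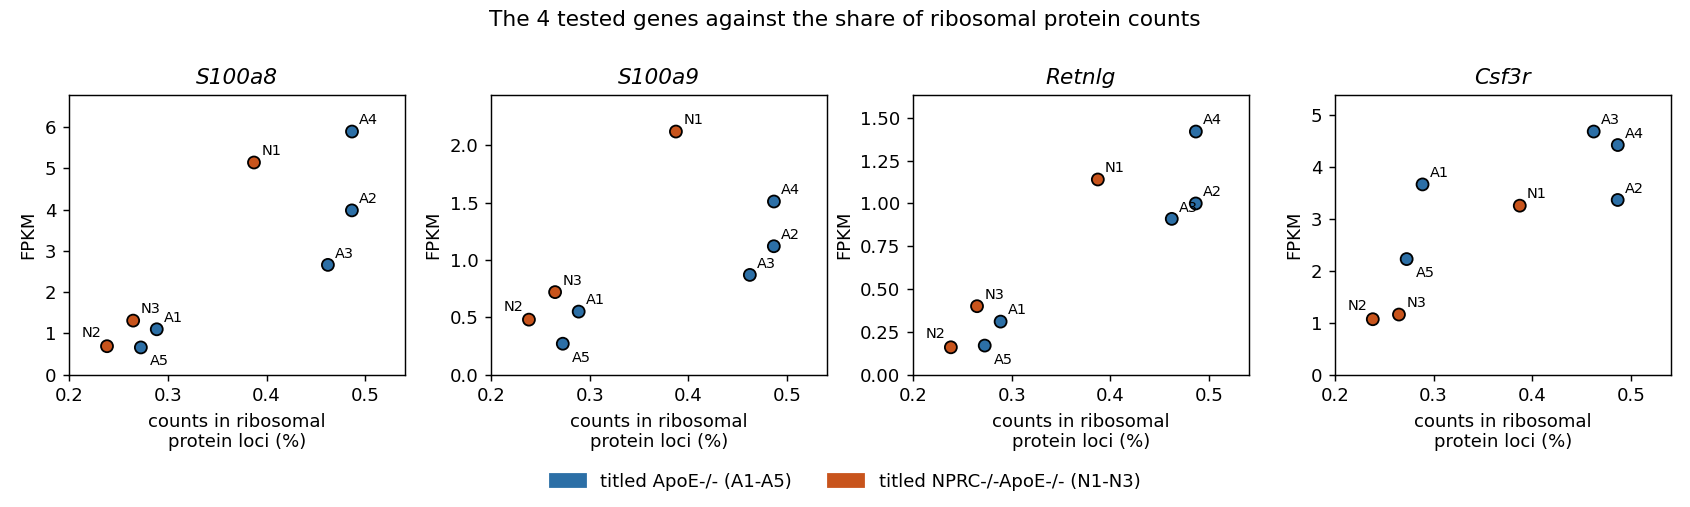
FPKM (y axes) of S100a8, S100a9, Retnlg and Csf3r against the percentage of counts in 57 ribosomal protein loci (x axes), 1 point for each library, coloured by title. In the first 3 panels the 4 libraries from 0.387% upwards on the x axis (N1 included) lie above the other 4, while Csf3r of A1 lies among the libraries of the higher set.

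With the set as a term in the model, which was chosen after seeing the data, the title fold changes of S100a8 and Retnlg turned positive (log2 0.28 ± 0.35 and 0.15 ± 0.39) and that of S100a9 was 0.71 ± 0.32 (adjusted p = 0.338 by edgeR, where its alternatives ranged from 0.338 to 1.00). Within the lower set, the titled groups overlapped for all 3 genes. S100a8 was 0.66 to 1.10 FPKM in 2 libraries titled ApoE-/- and 0.69 to 1.31 FPKM in 2 titled NPRC-/-ApoE-/-. The higher set held 1 library titled NPRC-/-ApoE-/-, whose S100a8 of 5.14 FPKM and Retnlg of 1.14 FPKM lay inside the ApoE-/- range, and whose S100a9 of 2.12 FPKM lay above it (0.87 to 1.51 FPKM).

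The 10 named loci most like S100a8 over the 8 libraries, out of 19926 tested loci with a name and outside the 10 genes, were Taf1c, the locus of Manf and Rbm15b, Adgrg6, Xxylt1, Fhdc1, Cd320, Slc37a3, D17H6S53E, Hspbp1 and Surf4, with r of log2 CPM from 0.970 to 0.996. None of the 10 was on a marker list. Of these loci, 10 of 10 had no overlap between the ribosomal protein sets, against 9.48% of all loci tested that were higher throughout the higher set. This largely follows from the choice, since S100a8 itself separates the sets. The level of Taf1c, a subunit of a factor for RNA polymerase I, was 2.11 to 2.58 FPKM in the higher set and 1.59 to 1.80 FPKM in the lower one. These r are a description over 8 libraries that share their depth and their set, and they were picked as the highest of many.

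Csf3r was the one member that met the criterion for a changed locus (a fold above 2 or under 0.5 together with an unadjusted p below 0.05), and it did so by title and not by genotype entry. It encodes the receptor through which granulocyte colony-stimulating factor drives neutrophil production and survival, and monocytes carry it too. Csf3r was 3.67, 3.37, 4.69, 4.43 and 2.23 FPKM in ApoE-/- 1 to 5 and 3.26, 1.07 and 1.16 FPKM in NPRC-/-ApoE-/- 1 to 3. NPRC-/-ApoE-/- 2 and 3 were below every library titled ApoE-/-, whereas NPRC-/-ApoE-/- 1 lay inside their range. The mean was 3.68 ± 0.972 FPKM (SD, n = 5) against 1.83 ± 1.24 FPKM (n = 3).

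By title, Csf3r was 2.02-fold lower (log2 fold change -1.01 ± 0.42, SE; adjusted p = 0.342 by edgeR). Of 20506 loci tested, 2.39% met the criterion in that direction and 13.6% had an unadjusted p under 0.05, against 1 of 4 tested members in both cases. At an adjusted p under 0.05 edgeR called 0% of the loci by title and 0% by genotype entry, members included, with 2797 and 269 loci at an unadjusted p under 0.05. DESeq2 called 650 and 9 loci at an adjusted p under 0.05, and Csf3r had an adjusted p of 0.148 by title there. Over all alternatives to the title fit, its adjusted p ran from 0.0690 (edgeR without NPRC-/-ApoE-/- 1) to 1.00 (edgeR by genotype entry). By genotype entry, Csf3r had a log2 fold change of -0.27 ± 0.52 (adjusted p = 1.00, edgeR), and 0 of 4 tested members met the criterion, against 0.463% of loci. The exact two-sided permutation test of its mean log2 CPM gave p = 0.0714 by title and p = 0.571 by genotype entry, where the smallest p that 5 against 3 libraries allow is 0.036.

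The call of Csf3r did not hold without ApoE-/- 1, 3 or 4 or without NPRC-/-ApoE-/- 2 or 3, with log2 fold changes of -1.03, -0.87, -0.90, -0.72 and -0.78. Without NPRC-/-ApoE-/- 1, the log2 fold change was -1.69 (adjusted p = 0.0690, edgeR, the lowest of its alternatives). With the ribosomal protein set as a term it was -0.90 ± 0.27 (adjusted p = 0.173, edgeR), just under 2-fold. Within both sets, every library titled NPRC-/-ApoE-/- was below every library titled ApoE-/- in Csf3r, as in 11.5% of all loci tested. In the lower set it was 3.67 and 2.23 FPKM in ApoE-/- 1 and 5 against 1.07 and 1.16 FPKM in NPRC-/-ApoE-/- 2 and 3, and in the higher set 3.37 to 4.69 FPKM in 3 libraries titled ApoE-/- against 3.26 FPKM in 1, a gap of less than the spread among the 3. Other members also did not overlap by title in 1 of the sets. S100a9, Mpo and Ngp were higher in NPRC-/-ApoE-/- 1 of the higher set. In the lower set, Ly6g was higher and Camp was lower in the libraries titled NPRC-/-ApoE-/-. With so few libraries in a set such gaps arise easily, and their share over all loci was not determined. All of these genes but S100a9 were below the filter on low values. Among the 4 libraries with the same genotype in both labels, Csf3r was 3.67, 3.37 and 4.69 FPKM in ApoE-/- 1 to 3 and 1.16 FPKM in NPRC-/-ApoE-/- 3, a log2 fold change of -1.68 with no test. The corresponding values of S100a8, S100a9 and Retnlg were -0.89, -0.17 and -0.82.

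**Figure D3:**
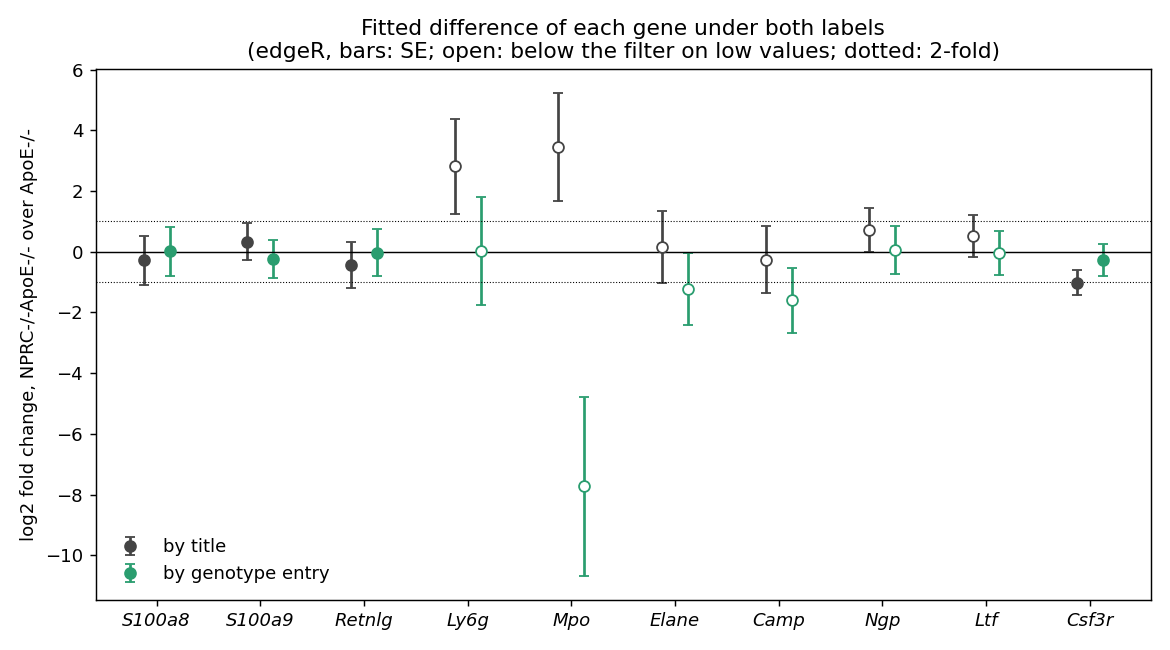
Log2 fold change in NPRC-/-ApoE-/- over ApoE-/- (y axis) of each gene (x axis) from edgeR by title (grey) and by genotype entry (green), with SE bars. Filled points passed the filter on low values, open points come from the fit without it, and dotted lines mark 2-fold. Csf3r lies at -1.01 by title and at -0.27 by genotype entry, and Mpo lies on opposite sides of 0 under the labels.

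Genes of leukocytes in general were low in the same libraries as Csf3r. Ptprc, which encodes the CD45 phosphatase of all leukocytes, was 6.05, 8.15, 7.62, 6.90 and 4.76 FPKM in ApoE-/- 1 to 5 and 5.04, 1.67 and 1.85 FPKM in NPRC-/-ApoE-/- 1 to 3. The ratio of Csf3r to Ptprc was 0.414 to 0.642 in the libraries titled ApoE-/- and 0.627 to 0.647 in those titled NPRC-/-ApoE-/-, so the ranges overlapped. Its ratio to Csf1r, the receptor that maintains macrophages, was 0.0965 to 0.147 and 0.0822 to 0.143. In bulk aorta, fewer cells of a type and less RNA per cell cannot be told apart.

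By title, 3 of 5 pan-leukocyte genes were lower by the criterion (Ptprc, Coro1a and Laptm5) and 0 higher, with a median log2 fold change of -1.20 where the median of all loci tested was -0.0062. The summed FPKM of the 5, to which Cd53, Laptm5 and Itgb2 gave most, was 81.0 to 186 in the libraries titled ApoE-/- and 44.1 to 109 in the others. Of 11 monocyte and macrophage genes, 5 were lower (C1qa, C1qb and C1qc of complement, the Fc receptor gene Fcgr1 and the chemokine receptor gene Ccr2) and 0 higher, with a median of -1.24. Their summed FPKM, mostly Lyz2, C1qb and C1qa, was 747 to 2296 against 350 to 1154. With edgeR 0 of these genes reached an adjusted p under 0.05, while DESeq2 gave such a value by title to 2 of the 5 (Ptprc and Laptm5) and 3 of the 11 (C1qa, Ccr2 and Mrc1). Of all 20506 loci tested by title, 2.39% were lower by the criterion and 13.6% had an unadjusted p under 0.05 in edgeR. DESeq2 gave 650 of the 20506 an adjusted p under 0.05. By genotype entry 0 of both lists were changed, with medians of -0.28 and -0.17. Markers of the wall were read in the same comparison. By title, 6 of 6 smooth muscle genes had a log2 fold change above 0 and an unadjusted p under 0.05 in edgeR, with a median of 0.64 and 0 past the fold criterion. DESeq2 gave 2 of these 6 an adjusted p under 0.05 by title. Their summed FPKM over all 6 was 1295 to 1741 in the libraries titled ApoE-/- and 1673 to 2880 in the others. All 4 fibroblast genes had values below 0 (median -0.93, 0 meeting the criterion), with sums of 448 to 1267 and 248 to 660 FPKM. By genotype entry their medians were 0.24 and -0.05. The part of macrophages, monocytes and the makeup of the wall in the level of Csf3r was not tested.

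**Figure D4:**
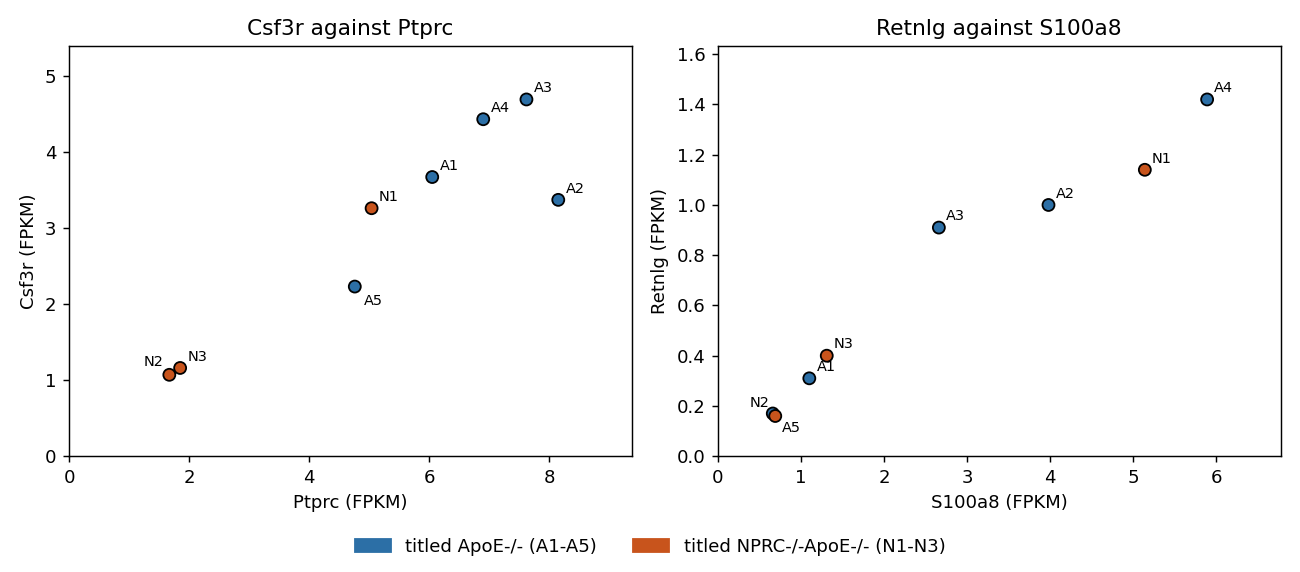
Left, Csf3r against Ptprc and right, Retnlg against S100a8, all in FPKM, 1 point for each library, coloured by title. Csf3r and Ptprc are both lowest in N2 and N3 (Ptprc 1.67 and 1.85 FPKM), whereas Retnlg and S100a8 place N1 with A2 to A4 and N2 with A5.

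Mpo was near the floor in every library but NPRC-/-ApoE-/- 1, and Elane was low throughout. Mpo and Elane are made at the promyelocyte stage, Mpo encoding myeloperoxidase and Elane neutrophil elastase. Mpo had 0, 6, 10, 0 and 0 counts in ApoE-/- 1 to 5 and 127, 0 and 0 in NPRC-/-ApoE-/- 1 to 3, or 0.35 FPKM in NPRC-/-ApoE-/- 1 and at most 0.03 FPKM in each of the others. That library thus held 88.8% of all Mpo counts. Elane had 4, 25, 3, 12 and 6 counts in ApoE-/- 1 to 5 and 31, 6 and 0 in NPRC-/-ApoE-/- 1 to 3, highest in NPRC-/-ApoE-/- 1 and ApoE-/- 2.

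Some other genes, mainly of the immature stage, were also highest in the same library. Ctsg, which encodes cathepsin G of the primary granules, had 81 counts in NPRC-/-ApoE-/- 1, 4 in ApoE-/- 3 and 0 in the other 6 libraries. Ms4a3, a marker of granulocyte and monocyte progenitors, Fcnb, a ficolin of immature neutrophils, and Mcpt8, a basophil protease, had 16, 17 and 15 counts there and 0 elsewhere. Chil3, a chitinase-like gene of neutrophil precursors and some macrophages, was also highest there (5.12 FPKM, against 0.27 to 2.32 FPKM in the others). Prtn3, the primary granule proteinase 3, was spread differently, with 72 counts in NPRC-/-ApoE-/- 1, 74 in ApoE-/- 4 and 55 in ApoE-/- 2. Prss57 was also spread, with 37 of its 153 counts in NPRC-/-ApoE-/- 1. The transcription factor genes Myb and Gfi1 were low there (0.07 and 0.08 FPKM). They were highest in ApoE-/- 5 (0.50 and 0.20 FPKM) and NPRC-/-ApoE-/- 3 (0.38 and 0.19 FPKM). Since the title and the genotype entry of NPRC-/-ApoE-/- 1 conflict, its counts fall on the NPRC-/-ApoE-/- side by title and on the ApoE-/- side by genotype entry.

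**Figure D5:**
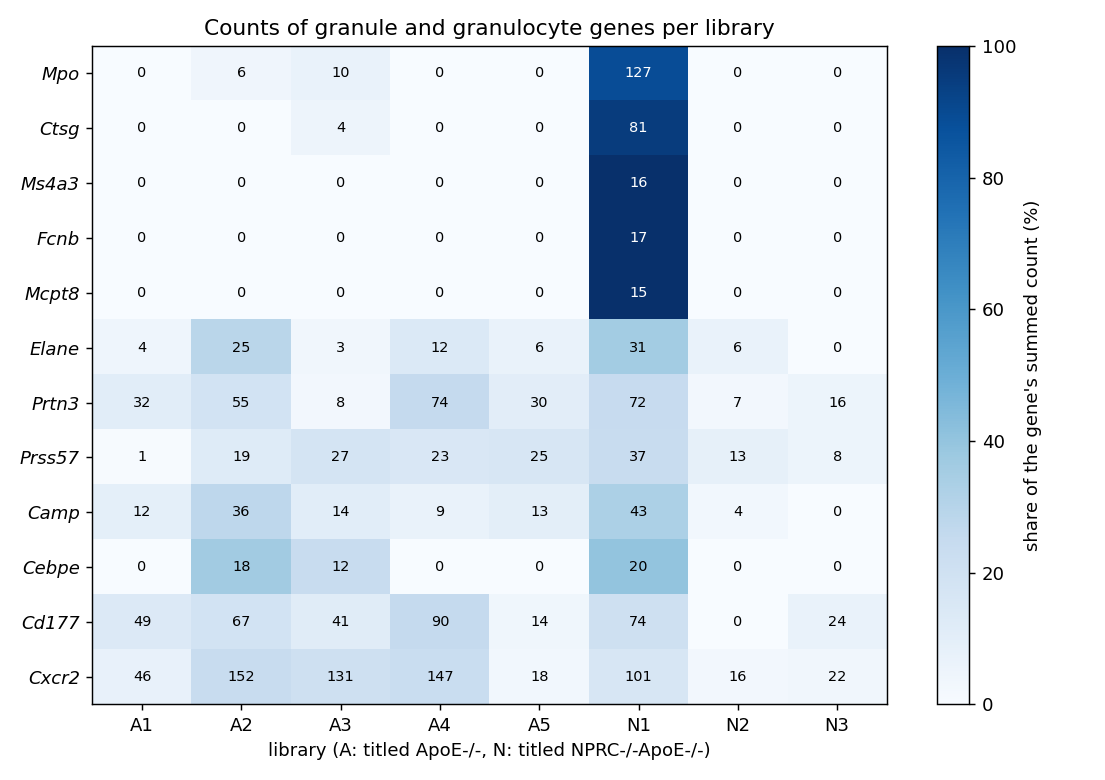
Counts (numbers in the cells) of 12 granule and granulocyte genes (rows) in each library (columns), shaded by the share of the gene's summed count in per cent. Mpo, Ctsg, Ms4a3, Fcnb and Mcpt8 have most or all of their counts in N1, whereas Elane, Prtn3, Prss57, Camp, Cd177 and Cxcr2 are spread over several libraries.

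The direction of Mpo therefore followed the label of 1 library. Without the filter on low values, edgeR gave Mpo a log2 fold change of 3.46 ± 1.78 by title (adjusted p = 0.520) and of -7.72 ± 2.94 by genotype entry (adjusted p = 1.00). The latter is a fitted value against a group with 0 counts, which depends on the prior count of the fit. With counts pooled over libraries, Mpo was at least 31.0-fold lower in the 3 libraries entered as NPRC-/-ApoE-/-, taking 3 counts for that group. Without NPRC-/-ApoE-/- 1 this pooled bound was 4.50-fold. The bounds cover counting error only and not the spread between libraries. ApoE-/- 1 and NPRC-/-ApoE-/- 2, both entered as ApoE-/-, also had 0 counts. The exact permutation p of Mpo was 0.750 by title and 0.357 by genotype entry. For Elane the mean log2 CPM differed by -0.27 by title (exact permutation p = 0.821) and by -0.99 by genotype entry (exact permutation p = 0.321).

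The specific granule genes had patterns of their own. Camp encodes the cathelicidin antimicrobial peptide, Ngp a cystatin-like granule protein of myeloid precursors, and Ltf the iron-binding lactoferrin. Ngp had 25, 85, 18, 34 and 55 counts in ApoE-/- 1 to 5 and 140, 8 and 89 in NPRC-/-ApoE-/- 1 to 3. Ltf had 29, 92, 34, 68 and 12 counts and 110, 18 and 93 counts in the same order. Camp had 12, 36, 14, 9 and 13 counts and 43, 4 and 0 counts.

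All 3 were high in ApoE-/- 2 and NPRC-/-ApoE-/- 1 and low in NPRC-/-ApoE-/- 2, but NPRC-/-ApoE-/- 3 had high Ngp and Ltf and 0 counts of Camp. The FPKM ratio of Ngp to Ltf was 1.33 to 3.67 in 7 libraries and 16.3 in ApoE-/- 5, where Ltf had 12 counts. That of S100a8 to Ngp ranged from 1.35 to 21.0, a wider spread than the S100a8 to Retnlg ratio. By title the mean log2 CPM differed by 0.35 for Ngp, 0.58 for Ltf and -1.05 for Camp (exact permutation p = 0.750, 0.571 and 0.393), and by genotype entry by 0.57, -0.14 and -1.48 (exact permutation p = 0.607, 0.857 and 0.214). None of these differences was larger than the spread between libraries.

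Ngp was most like a different set of loci than S100a8. The 10 nearest were Uros, Slc25a1, BC003965, Snx9, Abhd15, Dio2, Trib2, the locus of Wdr38 and Arpc5l, Gm20619 and Pkdcc, with r from 0.888 to 0.946. Of these, 0 of 10 separated the ribosomal protein sets, which largely follows from the choice, since Ngp did not separate them either. Slc25a1, the mitochondrial citrate carrier, was 29.4 FPKM in ApoE-/- 2 and 12.8 FPKM in NPRC-/-ApoE-/- 2.

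Ly6g encodes the GPI-anchored surface protein that antibodies use to identify mouse neutrophils, and it was near the limit of detection. It had 0, 0, 0, 4 and 0 counts in ApoE-/- 1 to 5 and 4, 9 and 5 counts in NPRC-/-ApoE-/- 1 to 3, at most 0.12 FPKM. The mean log2 CPM differed by 1.66 by title (exact permutation p = 0.0714) and by 0.28 by genotype entry (exact permutation p = 0.714). The library with the most Ly6g counts, NPRC-/-ApoE-/- 2, was among the lowest in S100a8, Retnlg and Ngp, so Ly6g and the abundant neutrophil mRNAs did not rank the libraries alike.

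Of 16 other genes for granule proteins, 15 had a locus, 5 were tested and 0 met the criterion under either label, with 4 of 5 log2 fold changes below 0 by title (median -0.69). The most abundant were Hp, the haptoglobin gene (39.5 to 173 FPKM), Lcn2, the siderophore-binding lipocalin (2.53 to 13.8 FPKM), and Chil3, and fat and other cells also express Hp and Lcn2. BC100530, a stefin gene, had 0 counts in all 8 libraries, and Stfa2 had no row. Their summed FPKM, nearly all of it Hp, was 122 to 193 in the libraries titled ApoE-/- and 47.0 to 151 in the others. By genotype entry the median was -0.08.

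Of 15 other neutrophil surface and signalling genes, 3 were tested and 1 was lower by title. This was Wfdc21, which encodes a small secreted protein of the whey acidic protein family, at 1.30, 1.37, 0.83, 1.46 and 1.17 FPKM in ApoE-/- 1 to 5 and 0.29, 0.20 and 0.15 FPKM in NPRC-/-ApoE-/- 1 to 3. The titled groups did not overlap (log2 fold change -2.42 ± 0.35, adjusted p = 0.132, edgeR), but by genotype entry the value was 0.23 ± 0.77. The share of all loci without such an overlap by title was not determined. C5ar1, the receptor for complement C5a, had -0.82 ± 0.20 (adjusted p = 0.255, edgeR), under 2-fold, and Ltb4r1, the leukotriene B4 receptor, -0.49 ± 0.57. Of this list, DESeq2 gave only C5ar1 an adjusted p under 0.05 by title. Cxcr2, the chemokine receptor of mature neutrophils, was below the filter, with 131 to 152 counts in ApoE-/- 2, 3 and 4, 101 in NPRC-/-ApoE-/- 1 and 16 to 46 in the other 4 libraries. It thus separated the ribosomal protein sets as S100a8 and 9.48% of all loci tested did.

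Of 7 granulocyte transcription factors, 4 were tested and 2 were lower by title, namely Spi1, which encodes PU.1 (log2 fold change -1.13 ± 0.40, adjusted p = 0.309, edgeR), and Runx1 (-1.06 ± 0.35, adjusted p = 0.297, edgeR). Macrophages express both. Cebpa, which is also a fat cell gene, was 16.9 to 54.8 FPKM (log2 fold change -0.60 ± 0.27). Cebpe, the factor needed for specific granules, had 18, 12 and 20 counts in ApoE-/- 2, ApoE-/- 3 and NPRC-/-ApoE-/- 1 and 0 in the other 5 libraries. The locus of Cebpb, which also holds A530013C23Rik, was 1.10 to 1.86 FPKM in the higher ribosomal protein set and 4.19 to 5.37 FPKM in the lower one, opposite to S100a8. Of all loci tested, 10.9% were lower throughout the higher set in this way. By genotype entry 0 of the 4 tested factors were changed.

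Among 9 growth factors and attractants of neutrophils, 3 were tested and 2 were lower by title. Cxcl1, a ligand of CXCR2, was 5.70, 9.46, 8.98, 7.01 and 2.77 FPKM in ApoE-/- 1 to 5 and 2.51, 1.82 and 2.77 FPKM in NPRC-/-ApoE-/- 1 to 3 (log2 fold change -1.51 ± 0.41, adjusted p = 0.255, edgeR). Il1b, the interleukin-1 beta gene, was 0.96 to 5.70 FPKM against 0.24 to 1.60 FPKM (-2.25 ± 0.84, adjusted p = 0.319, edgeR). Cxcl12, which retains neutrophils in the marrow, had -0.94 ± 0.30 (adjusted p = 0.289, edgeR). Of these 3, DESeq2 gave only Cxcl1 an adjusted p under 0.05 by title. Csf3, the ligand of Csf3r, was below the filter with 112 counts in all 8 libraries together. By genotype entry 0 of 3 were changed, and Cxcl1 had -0.40 ± 0.61.

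Of 7 receptors of S100A8/A9 and lactoferrin, 6 were tested and 0 were changed under either label. Lrp1 (127 to 267 FPKM), Cd36 (41.8 to 115 FPKM) and Bsg (45.0 to 85.3 FPKM) were the most abundant, at levels far above their ligands, and all 3 are also expressed by cells of the wall or by fat. The median log2 fold change was -0.29 by title and -0.08 by genotype entry.

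Markers of other blood cells were read beside the neutrophil genes. Of 10 erythroid and platelet genes at 8 loci, 6 were tested and 0 changed, and the summed FPKM, mostly of the haemoglobin loci and Pf4, was 180 to 1819 in the higher ribosomal protein set and 118 to 885 in the lower one. Of 8 eosinophil, basophil and mast cell genes, 3 were tested (Mcpt4, Kit and Cpa3). The mast cell protease genes Mcpt4 (-1.80 ± 0.49, adjusted p = 0.255, edgeR) and Cpa3 (-1.53 ± 0.34, adjusted p = 0.224, edgeR) were lower by title, with summed FPKM of the list from 4.74 to 11.3 against 2.31 to 4.31. DESeq2 gave Mcpt4 and Cpa3 an adjusted p under 0.05 by title. By genotype entry 0 of 3 were changed, and the values were 0.02 ± 0.72 for Mcpt4 and -0.28 ± 0.58 for Cpa3. Of 6 T and B cell genes, led by Cd79b, Cd79a and Cd8a, 1 was tested and 0 changed, and the list summed to 2.59 to 16.7 against 1.21 to 2.95 FPKM. The part of these cells in the values of the neutrophil genes was not tested.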

How the data were processed

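Poly(A) RNA of whole aortas was sequenced in 8 libraries. Per the methods and the submitters' processing notes, the authors trimmed reads with cutadapt 1.9, checked them with FastQC, aligned the reads by HISAT2 and built loci by StringTie (GRCm38). The authors deposited whole-number counts and FPKM values of 48607 loci, and how the counts were derived is not given in the sources used here. The 10 genes and all lists were chosen with earlier results of these data known. Named from each list are the genes meeting the criterion, the 3 with the highest mean FPKM and those at 0 counts. Ctsg, Ms4a3, Fcnb, Mcpt8, Prtn3, Prss57, Cd177, Cxcr2, Cebpe, Csf3, Myb and Gfi1 were named after their values were seen.

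The 20506 loci that reached 1 FPKM in 3 or more libraries were fitted with edgeR 4.0.16 in R 4.3.3 (TMM, quasi-likelihood test, Benjamini-Hochberg adjustment). Log2 CPM (counts scaled to the library total) used a prior count of 2, with two-sided exact permutation tests in scipy and BH adjustment over 8 relations. limma 3.58.1, DESeq2 1.42.0, other filters and scalings, and each library left out were alternatives. On simulated counts for the title comparison (20506 loci, 200 changed), the criterion called 23 and 20 of 50 loci at a log2 change of -1 and 1, and 49 and 50 of 50 at -2 and 2. The simulated libraries held no ribosomal protein sets and took their spread from the trend over loci. These numbers therefore need not hold for S100a8, S100a9 and Retnlg, which separated the sets. No labels tie libraries to separate mice, so p-values measure the spread between these libraries, and their number limits the precision.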

Additional observations from a re-analysis of the deposited data

Results flagged for a closer look

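Dixon's test of the highest and lowest library was run on the log2 CPM of each of the 10 genes in the 5 libraries of the ApoE-/- group under each label, 20 groups in all, of which about 1 is flagged by chance. It picked out 2. Ly6g in ApoE-/- 4 stood apart from the other libraries titled ApoE-/- (log2 CPM -3.71), which rests on 4 counts against 0 in the other 4. Csf3r in NPRC-/-ApoE-/- 2, whose genotype entry is ApoE-/-, stood apart from the other 4 libraries with that entry (log2 CPM 2.37, or 1.07 FPKM).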

How the results depend on the processing

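By title, the number of members meeting the criterion (1, Csf3r) was 0 with limma on log2(FPKM + 1), with the ribosomal protein set as a term and under the genotype entry, and 0 to 1 with each library left out. It fell to 0 without ApoE-/- 1, 3 or 4 or NPRC-/-ApoE-/- 2 or 3. By genotype entry it was 0 with each library left out and 1 without the filter on low values (Mpo, which rests on NPRC-/-ApoE-/- 1). With the set as a term and without the filter, Mpo met the criterion under both labels in opposite directions. Its log2 fold change there was 4.05 ± 1.30 by title and -6.53 ± 2.63 by genotype entry. The number of changed loci by title (712) was 175 with limma on log2(FPKM + 1), 2287 without the filter, 1738 with filterByExpr, 462 with the set as a term, 95 by genotype entry and 403 to 1635 with each library left out. It was 1132 without ApoE-/- 5, 1635 without NPRC-/-ApoE-/- 1, 404 without NPRC-/-ApoE-/- 2 and 403 without NPRC-/-ApoE-/- 3. By genotype entry (95) it was 23, 785 and 332 under the first 3 of these and 84 to 240 with each library left out (240 without ApoE-/- 4, 189 without ApoE-/- 5 and 153 without NPRC-/-ApoE-/- 2). Dropping the filter and filterByExpr both raise the number of loci tested, and the cause of the other shifts was not tested.

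Signs of the small changes were not stable. By title, the log2 fold change of S100a8 turned to 0.28 with the set as a term and 0.015 by genotype entry, that of Retnlg to 0.15 with the set as a term, and that of S100a9 to -0.17 in the 4 libraries with the same genotype in both labels and -0.24 by genotype entry. With each library left out they ran from -1.46 to 0.21 (S100a8), -0.50 to 0.71 (S100a9), -1.36 to 0.0069 (Retnlg) and -1.69 to -0.72 (Csf3r). By genotype entry, S100a8 turned to -0.15 and -0.27 with limma on log2(FPKM + 1) and log2(FPKM + 0.1), and S100a9 and Retnlg to 0.10 and 0.42 with the set as a term. With each library left out the ranges were -1.39 to 0.49 (S100a8), -0.98 to 0.20 (S100a9), -1.22 to 0.43 (Retnlg) and -0.92 to 0.072 (Csf3r). On log2(FPKM + 1), the difference of Elane by title turned to 0.012 and that of Ly6g by genotype entry to -0.0063. The 8 relations of S100a8 kept their sign and their side of the threshold on log2(FPKM + 1), and kept their sign without the 2 libraries farthest from the median. Centred within the ribosomal protein sets, r turned to -0.48 with Camp, -0.043 with Csf3r and -0.20 with Ptprc, and that with S100a9 (0.86) no longer passed the adjusted threshold.

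Libraries with the same number did not vary together (correlations of -0.314, -0.113 and 0.007), so no pairing by number was seen. These values cannot settle the question, since the pairs are few and each has its libraries in different ribosomal protein sets. With the replicate block 800 loci and 1 member met the criterion in the 6 libraries numbered 1 to 3, and without the block 917 loci and 1 member did. Summing loci of the same name could change nothing, since each member has 1 locus. Counts under 10 in several libraries limit what can be said of Ly6g, Mpo, Elane and Camp.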
